A study of Rattus norvegicus with 6 samples.

Results

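The potassium and HCN channel genes were taken as all features of the deposited table whose symbol is a rat Kcn gene (Kcn, a letter and further letters or digits) or an Hcn gene. The rule matched 98 of 32662 features, with Kcnn2 present as 2 features. The samples were 6 poly(A)-selected RNA-seq libraries from the amygdala of male Sprague Dawley rats, an outbred laboratory strain, at postnatal day 38. In the B-CTRL group (n = 3) the rats had gone through a test of social play before the amygdala was taken. In the NB-CTRL group (n = 3) they had not. Strain, sex label, age and tissue were shared by both groups, and the labels name no other treatment or allele. Since no label ties a library to its own animal, the p-values below reflect only how these samples vary, which may be technical.

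Potassium channels let potassium leave the cell and so hold neurons near rest, end action potentials and set how fast a neuron can fire. Voltage-gated channels open on depolarization, inward rectifiers (Kcnj) and two-pore channels (Kcnk) carry resting and receptor-controlled currents, and calcium-activated channels (Kcnm, Kcnn) follow calcium entry. HCN channels open on hyperpolarization and carry a depolarizing mixed cation current that paces firing and dampens dendritic inputs.

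Values are FPKM made by the authors, fragment counts scaled to transcript length and library size, so levels can be compared between genes. FPKM sums ran from 579141 to 641725 in B-CTRL and from 522422 to 536937 in NB-CTRL. Without counts the absolute depth is unknown. The steps between low values gave rough depths of 0.732 to 1.62 relative to NB-CTRL 1, with B-CTRL 2 the shallowest. Several libraries stood apart. B-CTRL 1 held choroid plexus transcripts (7 of 7 markers highest there, summed level 7242 FPKM against 4.17 to 28.7 in the other 5), and its Y-linked Eif2s3y was at 0.317 FPKM against 49.5 to 89.9 elsewhere, which goes against the sex label of that library. NB-CTRL 2 was highest for 6 of 8 markers of thalamic and hypothalamic neurons, with summed levels of 46.7 to 68.0 FPKM in B-CTRL and 55.1 to 174 in NB-CTRL. Markers of striatal neurons, summed, ran from 938 to 3268 FPKM in B-CTRL and from 808 to 2019 in NB-CTRL. The excitatory neuron gene Slc17a7 stood at 350, 6.58 and 122 FPKM in B-CTRL 1, 2 and 3 and at 16.7, 24.8 and 263 in NB-CTRL 1, 2 and 3. In bulk tissue, fewer cells of a type and less RNA per cell cannot be told apart.

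Of the 98 features, 78 reached 0.5 FPKM on average across libraries and were tested. Another 6 were listed at 0 in all libraries (Kcna10, Kcne1, Kcnk6, Kcnk18, Kcnmb3 and Kcnu1), and 14 lay between, such as Kcnk7 at a mean of 0.484 and Kcnh8 at 0.453 FPKM. The tested members had a median level of 11.1 FPKM, against 12.6 for all 14043 tested features. The highest levels belonged to 2 cytoplasmic beta subunits of voltage-gated channels, Kcnab1 (mean over 6 libraries 127 FPKM) and Kcnab2 (92.3 FPKM). Below them came the mechanosensitive two-pore channel Kcnk2 (53.7 FPKM), the pacemaker channel Hcn2 (50) and the sodium-activated channel Kcnt1 (47.9). The inward rectifier Kcnj4 (44.6), the A-type channel partner Kcnip4 (41.6) and Kcnmb4 (39.6), the neuronal beta subunit of the large-conductance calcium-activated channel, were also among the highest. Several of these neighbours in rank had overlapping libraries, for example Kcnk2 (27.9 to 88.7 FPKM) and Hcn2 (36.7 to 62.7 FPKM). In spread over the 6 libraries, the highest value was 2.82 times the lowest in the median member. Kcng4, a modulatory subunit, was the steadiest (1.26 times), followed by the two-pore channel Kcnk1 (1.29 times), and Kcnj13 the most variable (341 times). Of the 98 features 16 share their locus with other features, among them Kcnab1, Kcnab2, Kcnip4, Kcnmb4, Kcnma1 and Kcnh3, so fragments may be split between overlapping features and these levels are uncertain.

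Most potassium channel genes had a lower mean in rats that had been tested, and the classes differed in how many. On the log2(FPKM + 0.5) scale, which understates changes of low genes, 57 of 78 tested members were lower in B-CTRL (73.1%, against 50.3% of all tested features). Their median log2 difference, B-CTRL minus NB-CTRL, was -0.23 (quartiles -0.57 and 0.0088), against -0.0024 for all tested features. In limma with Benjamini-Hochberg adjustment over all 14043 features 0 members passed an adjusted p of 0.05, and 0% of all features did. At an unadjusted p under 0.05, 10 members were lower (12.8%, against 6.07% of all features) and 0 were higher (against 6.25%). In 9 members every B-CTRL library lay below every NB-CTRL library (11.5%, against 12% of all features), and in 1 every B-CTRL library lay above (against 11.7%). The share apart in the lower direction was thus close to that of all features, and the share apart in the higher direction was below it.

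**Figure D1:**
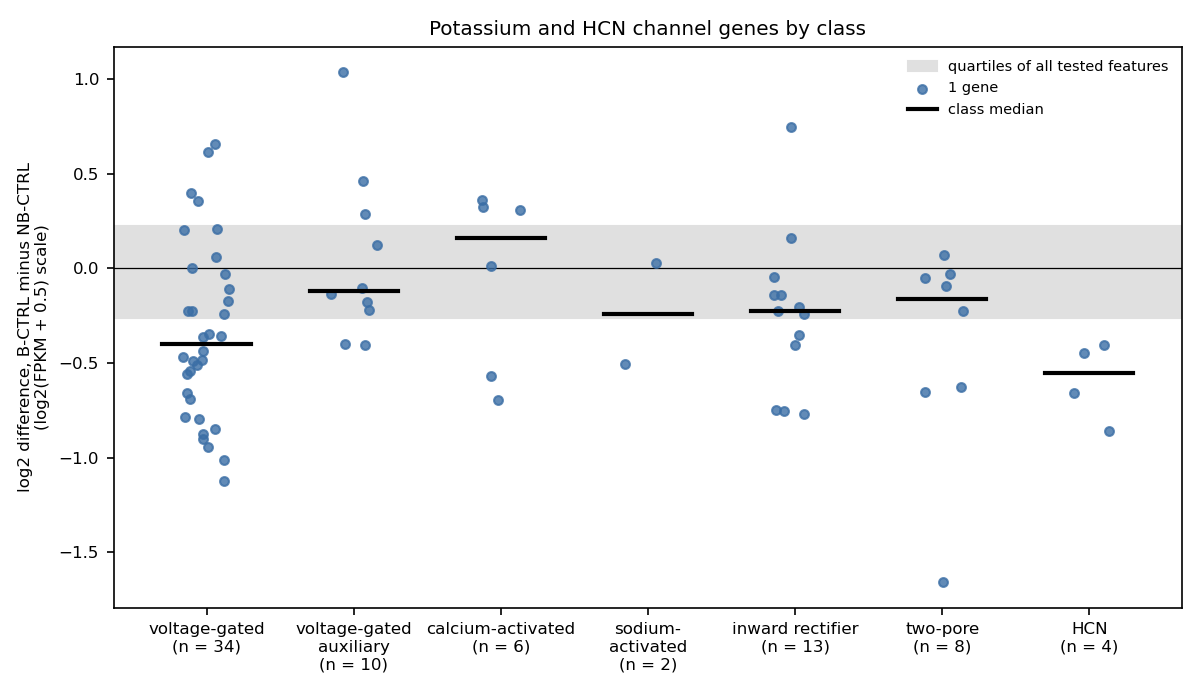
Each point is 1 tested channel gene and gives its log2 difference between B-CTRL (n = 3) and NB-CTRL (n = 3) on the log2(FPKM + 0.5) scale, by channel class; bars are class medians and the grey band spans the quartiles of all tested features. The medians of the HCN (-0.55) and voltage-gated (-0.40) classes lie below the band, and that of the calcium-activated class (0.16) lies above 0.

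The class medians were -0.55 for 4 HCN genes, -0.40 for 34 voltage-gated pore subunits, -0.24 for 2 sodium-activated channels, -0.23 for 13 inward rectifiers, -0.16 for 8 two-pore channels, -0.12 for 10 auxiliary subunits of voltage-gated channels and 0.16 for 6 calcium-activated members. Lower means on the log2 scale were found for 4 of 4 HCN, 26 of 34 voltage-gated and 11 of 13 inward rectifier members. They were also found for 7 of 8 two-pore, 6 of 10 auxiliary and 2 of 6 calcium-activated members. Kcnrg, a suppressor of voltage-gated channels that stands outside these classes, was at 1.07 ± 0.458 against 0.900 ± 0.206 FPKM (mean ± SD, n = 3 each, with B-CTRL first here and in later sentences). Medians of small classes rest on few genes, and differences between classes were not tested.

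The Kcnc subfamily, which encodes the fast delayed rectifiers that allow fast-spiking neurons to fire at high rates, held the member with the lowest p. Kcnc1 stood at 19.2, 16.3 and 17.7 FPKM in B-CTRL 1, 2 and 3 and at 27.1, 43.1 and 25.7 FPKM in NB-CTRL 1, 2 and 3. Every tested library lay below every untested one, and the highest was NB-CTRL 2. Its log2 difference was -0.80 ± 0.21 SE, with an unadjusted limma p of 0.00748, the lowest of the 78 members, and an adjusted p of 0.4. Kcnc4 (8.88 ± 2.85 against 14.7 ± 4.67 FPKM) and Kcnc2 (18.6 ± 7.30 against 23.5 ± 7.27 FPKM) had lower means in B-CTRL, with overlapping groups. Kcnc1, Kcnc2 and Kcnc4 were all highest in NB-CTRL 2. Of 5 markers of fast-spiking interneurons 3 were also highest there and had lower means in B-CTRL, namely Syt2 (14.3 ± 5.16 against 25.6 ± 4.68 FPKM), Erbb4 (2.81 ± 2.16 against 5.42 ± 1.15) and Lhx6 (4.42 ± 1.41 against 7.09 ± 2.53). Pvalb (104 ± 22.8 against 73.4 ± 3.29 FPKM) and Tac1 (510 ± 225 against 279 ± 125 FPKM) had higher means. Tac1 was lowest in NB-CTRL 2 and next lowest in B-CTRL 1, the lowest 2 libraries of all 5 striatal markers, and highest in B-CTRL 2. Whether Tac1 marks fast-spiking neurons in this tissue was not tested. The median log2 difference of the list was -0.61, while its summed level, most of it Tac1, was 394.5 to 819 FPKM in B-CTRL and 254 to 468.5 in NB-CTRL. The part of these markers in the Kcnc differences was not tested. Kcnc1 lies on chromosome 1 from 102414624 to 102456411 (rn6, coordinates of the deposited table; ENSRNOG00000055401).

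Among the Kcna genes, which encode low-threshold channels of axons and their initial segments, 5 of 6 tested had lower means on the log2 scale. Kcna2, the main axonal subunit together with Kcna1, stood at 23.8, 16.8 and 25.9 FPKM in B-CTRL and at 28.1, 36.8 and 31.6 FPKM in NB-CTRL (log2 difference -0.54 ± 0.20 SE, unadjusted limma p 0.0283). Kcna6 stood at 25.9, 23.3 and 19.1 against 36.0, 35.9 and 26.3 FPKM (log2 difference -0.51 ± 0.18 SE, unadjusted limma p 0.0261). Kcna3, also known from lymphocytes and microglia, stood at 2.90, 0.897 and 3.85 against 4.88, 6.72 and 5.01 FPKM (log2 difference -1.13 ± 0.42 SE, unadjusted limma p 0.0309). In these 3 genes the groups did not overlap, and for Kcna6 the gap between the nearest libraries was below 1 FPKM. Kcna1 was at 4.33 FPKM in B-CTRL 2 and at 21.5 to 29.0 FPKM in the other 5 libraries. Kcna4, an A-type subunit, and Kcna5 had overlapping groups (17.3 ± 6.4 against 14.6 ± 3.69 FPKM, and 8.71 ± 4.57 against 8.66 ± 1.53 FPKM). The Kcna5 mean was lower on the log2 scale alone (log2 difference -0.11). Without B-CTRL 2 the log2 difference of Kcna3 was -0.64 and that of Kcna2 -0.36, and for Kcna3 the unadjusted limma p was 0.0531, 0.0927 and 0.0564 without NB-CTRL 1, 2 and 3. Kcna3 shares its locus with another feature, so its value is uncertain.

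Kcnb2, a delayed rectifier of somata and dendrites, stood at 1.19, 0.840 and 1.38 FPKM in B-CTRL and at 1.91, 3.13 and 2.52 FPKM in NB-CTRL, with groups apart (log2 difference -0.87 ± 0.24 SE, unadjusted limma p 0.00835). The annotated locus of Kcnb2 spans 2.56 kb here. The silent subunit Kcnf1, which joins Kcnb channels, ran from 15.4 to 47.9 FPKM in B-CTRL and from 23.2 to 47.1 in NB-CTRL.

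**Figure D2:**
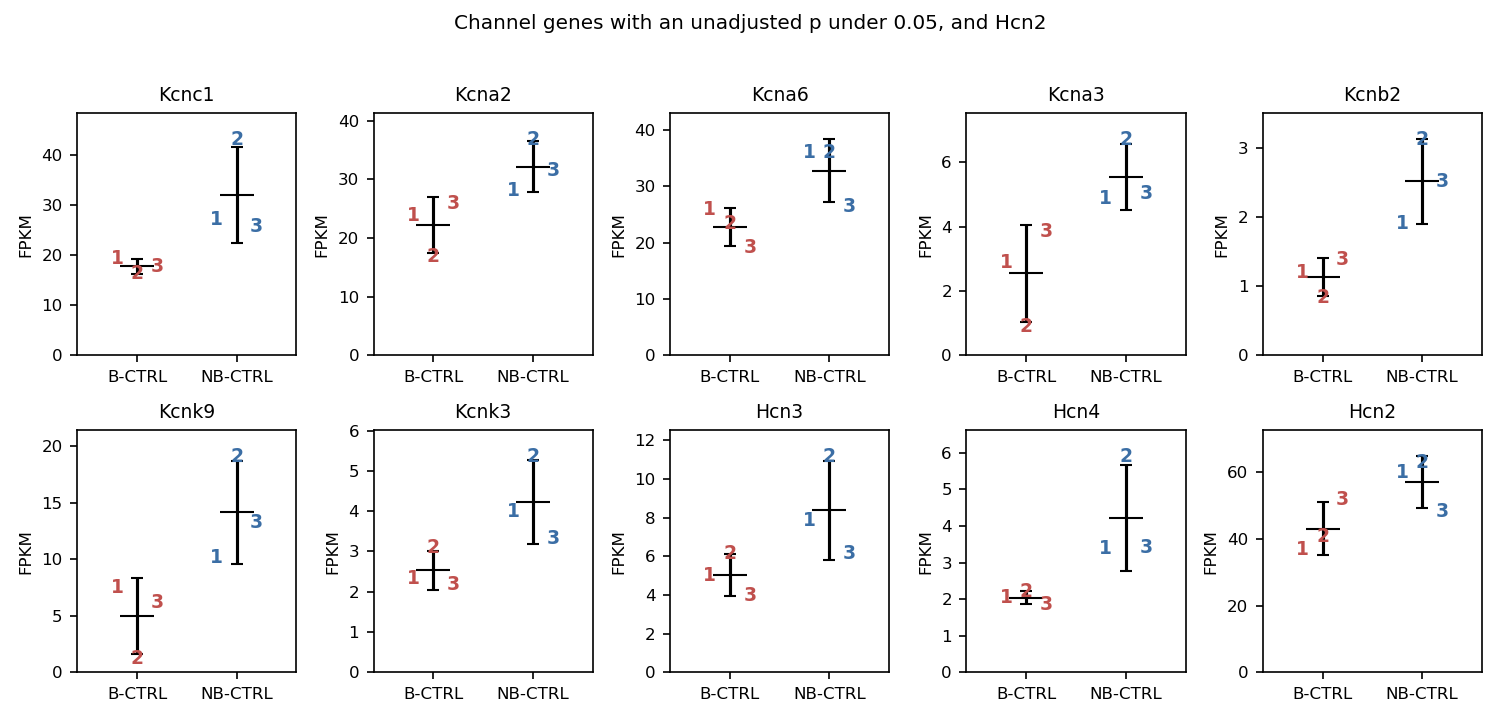
FPKM of members with an unadjusted limma p under 0.05 and of Hcn2, each library drawn as its replicate number (red B-CTRL, blue NB-CTRL) with the group mean and SD (n = 3). B-CTRL 1 to 3 of Kcnc1 sit between 16.3 and 19.2 FPKM, and NB-CTRL 2 is the highest library in each gene drawn except Kcna6.

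Kcnq3, a subunit of the M-current that brakes repetitive firing, stood at 14.0, 4.06 and 27.3 against 22.5, 19.0 and 23.6 FPKM. It was lowest in B-CTRL 2 and highest in B-CTRL 3, so the tested group spanned the untested one. Its log2 difference was -0.85 ± 0.59 SE. Kcnq5, another neuronal M-current subunit whose locus is shared with other features, was at 37.0 ± 11.5 against 31.9 ± 9.08 FPKM.

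Each of the 7 tested Kcnh genes, the ether-a-go-go family, had a lower mean, and 0 had an unadjusted limma p under 0.05. Kcnh2, the ERG channel, was at 14.7 ± 3.00 against 21.0 ± 5.63 FPKM, and Kcnh5 at 1.42 ± 1.07 against 2.93 ± 0.719 FPKM. The most abundant, Kcnh3, stood at 15.6, 20.1 and 38.1 against 27.3, 21.5 and 32.7 FPKM. The A-type channel genes Kcnd1 (7.44 ± 2.24 against 6.97 ± 1.22 FPKM) and Kcnd3 (10.7 ± 2.75 against 14.4 ± 1.74 FPKM) overlapped between groups. Besides Kcnf1, 8 modulatory subunits that do not form channels on their own were tested. Higher log2 means were found for 5 (Kcng2, Kcns1, Kcns2, Kcns3 and Kcnv1, counted after their values were seen). Kcng1, Kcng3 and Kcng4 were lower, as were 50.3% of all tested features. Kcng2, Kcns1 and Kcns3 were highest in B-CTRL 1. Kcnv1 stood at 14.2, 16.6 and 21.6 against 11.4, 6.76 and 16 FPKM (log2 difference 0.65 ± 0.31 SE). Kcns2 stood at 8.66, 5.81 and 22.7 against 13.8, 7.85 and 10.7 FPKM (log2 difference 0.0019 ± 0.47 SE).

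The auxiliary subunits of voltage-gated channels included the 2 most abundant members and showed 0 unadjusted p under 0.05. Kcnab1 stood at 89.2, 157 and 197 FPKM in B-CTRL and at 124, 67.4 and 125 FPKM in NB-CTRL, with overlap. Kcnab2 lay between 95.1 and 115 FPKM in 5 libraries and at 37.9 FPKM in B-CTRL 2, and its log2 difference of -0.40 became 0.09 without that library. Kcnab3, the third beta subunit, was at 9.55 ± 1.85 against 13.0 ± 3.57 FPKM. The Kcnip genes encode calcium-binding partners of A-type channels. Kcnip4 (40.1 ± 9.20 against 43.0 ± 9.42 FPKM), Kcnip3 (25.7 ± 5.88 against 30.4 ± 10.3) and Kcnip1 (25.9 ± 10.5 against 27.7 ± 7.27) differed by less than their spread, and Kcnip2 was at 21.9 ± 10.6 against 17.2 ± 5.14 FPKM. Among the single-pass Kcne subunits, Kcne5 (16.1 ± 2.25 against 14.7 ± 1.04 FPKM) and Kcne4 (1.71 ± 0.130 against 2.01 ± 0.398 FPKM) were steady over libraries.

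In the calcium-activated class the B-CTRL mean was the higher one for 4 of 6 tested members and the lower one for 2. Kcnma1, the pore of the large-conductance channel that shortens action potentials, stood at 15.5, 4.17 and 16.7 against 15.9, 14.3 and 21.8 FPKM. Its neuronal beta subunit Kcnmb4 stood at 37.0, 45.3 and 51.5 against 36.5, 28.2 and 39.1 FPKM (log2 difference 0.36 ± 0.18 SE, unadjusted limma p 0.0891). The small-conductance channels, which carry the afterhyperpolarization, did not share a direction. Kcnn2 stood at 8.77, 8.77 and 7.73 FPKM in B-CTRL and at 6.34, 6.55 and 7.26 FPKM in NB-CTRL, and it was the member whose tested libraries all lay above the untested ones (log2 difference 0.31 ± 0.14 SE, unadjusted limma p 0.0655). Kcnn3 stood at 3.87, 3.64 and 6.89 against 8.43, 6.82 and 6.15 FPKM (log2 difference -0.57 ± 0.26 SE), and Kcnn1 at 7.21 ± 1.61 against 7.04 ± 0.401 FPKM. Without B-CTRL 1 the class median was -0.045 in place of 0.16. The sodium-activated Kcnt1 stood at 21.5, 37.6 and 66.0 against 60.4, 44.8 and 57.4 FPKM, and Kcnt2 at 9.42, 2.42 and 3.40 against 3.44, 4.07 and 5.43 FPKM.

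Of 13 tested inward rectifiers 11 had a lower mean, with 0 unadjusted p under 0.05 and overlapping groups in each. The G protein-gated subunits carry slow inhibition by GABA-B, opioid and other receptors, and 3 of the 4 tested shared their lowest library. Kcnj3 stood at 18, 4.13 and 13.0 against 10.2, 12.8 and 16.3 FPKM, Kcnj6 at 5.47, 0.339 and 2.31 against 1.91, 4.30 and 5.50 FPKM, and Kcnj9 at 18.6, 7.63 and 21.1 against 13.4, 23.2 and 23.2 FPKM. These 3 were lowest in B-CTRL 2, and without it the log2 difference of Kcnj9 was 0.035 in place of -0.41. The scarcer Kcnj5 ran differently, at 1.18, 1.65 and 0.813 against 1.57, 1.56 and 0.989 FPKM, with B-CTRL 2 its highest library. The strong rectifiers Kcnj4 (22.2, 35.7 and 74.2 against 49.2, 27.7 and 58.4 FPKM) and Kcnj2 (5.11, 6.28 and 18.4 against 13.4, 6.33 and 11.6 FPKM) were highest in B-CTRL 3 and lowest in B-CTRL 1. Kcnj11, the pore of ATP-sensitive channels that couple excitability to energy supply, was at 14.1 ± 4.12 against 14.1 ± 1.67 FPKM. Kcnj8, the ATP-sensitive pore known from vessels, was at 3.10 ± 0.845 against 2.71 ± 0.648 FPKM.

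The glial rectifier Kcnj10, which takes up potassium into astrocytes, stood at 37.3, 12.4 and 32.0 FPKM in B-CTRL and at 51.6, 41.7 and 34.1 FPKM in NB-CTRL (log2 difference -0.76 ± 0.40 SE). B-CTRL 2 was far below the rest for this gene, and without it the log2 difference of Kcnj10 was -0.27. The 5 astrocyte markers summed to 688 FPKM in B-CTRL 2 and to 534.5 to 796 FPKM in the other 5 libraries. Their part in the Kcnj10 difference was not tested. Kcnj16, the partner subunit of Kcnj10, stood at 10.7, 3.50 and 2.03 against 6.67, 14.1 and 4.65 FPKM. Kcnj13, known from choroid plexus and retinal epithelium, stood at 19.7 FPKM in B-CTRL 1 and at 0.0577 to 1.86 FPKM in the other 5 libraries. Kcne2, an auxiliary subunit of choroid plexus epithelium, stood at 13.4 FPKM in B-CTRL 1 and at 0.713 to 1.78 FPKM in the others. These 2 genes had the largest positive log2 differences of the family (0.75 ± 1.33 and 1.03 ± 0.84 SE), and without B-CTRL 1 the values were -0.90 and -0.017. The choroid plexus marker Ttr, at 7142 FPKM in B-CTRL 1 and at 2.67 to 27.2 FPKM elsewhere, was high in the same library.

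Kcnk9 and Kcnk3, acid-sensitive two-pore channels that carry background current in many neurons, were lower in B-CTRL with groups apart. They were 2 of 8 tested two-pore members (25%, against 12% of all features apart in that direction). Kcnk9 stood at 7.53, 1.20 and 6.18 FPKM in B-CTRL and at 10.1, 19.1 and 13.3 FPKM in NB-CTRL, the largest difference among the 78 members (log2 difference -1.66 ± 0.58 SE, unadjusted limma p 0.0251). Without B-CTRL 2 that of Kcnk9 was -0.96, and it was then no longer the largest. Its relative Kcnk3 stood at 2.33, 3.09 and 2.18 against 4, 5.36 and 3.31 FPKM (log2 difference -0.63 ± 0.22 SE, unadjusted limma p 0.0270). For Kcnk3 that p was 0.059 after scaling libraries to 1 median and 0.108 after quantile normalization. With single libraries left out it was under 0.05 only without B-CTRL 2 (0.0159) or NB-CTRL 3 (0.0222). Kcnk9 shares a locus of 624 kb with other features, so its value is uncertain. The mechanosensitive Kcnk2 stood at 27.9, 52.8 and 88.7 against 63.6, 29.9 and 59.4 FPKM, with a log2 difference of 0.070 ± 0.46 SE. Kcnk1 lay between 23.3 and 30.2 FPKM in all 6 libraries (log2 difference -0.031 ± 0.14 SE, and 0.064 after scaling libraries to 1 median). Kcnk4, Kcnk10, Kcnk12 and Kcnk13 also had negative log2 differences, with overlapping groups. In mean FPKM Kcnk12 was level (2.35 against 2.34 FPKM, log2 difference -0.054 ± 0.30 SE).

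The HCN genes had the lowest class median, and 2 of 4 were lower at an unadjusted limma p under 0.05 (against 6.07% of all features). Hcn4, known from thalamus and cardiac pacemaker cells, stood at 2.04, 2.21 and 1.86 FPKM in B-CTRL and at 3.39, 5.90 and 3.40 FPKM in NB-CTRL. The tested libraries lay close together and below all untested ones (log2 difference -0.86 ± 0.24 SE, unadjusted limma p 0.00906). Hcn3 stood at 5.01, 6.14 and 3.99 against 7.84, 11.2 and 6.13 FPKM, where B-CTRL 2 and NB-CTRL 3 met (log2 difference -0.66 ± 0.25 SE, unadjusted limma p 0.0361), and it shares its locus with another feature. The unadjusted limma p of Hcn3 was 0.0732 after scaling libraries to 1 median and 0.0971 after quantile normalization. With single libraries left out it was under 0.05 only without B-CTRL 2 (0.0259) or NB-CTRL 3 (0.0177). Hcn2, the most abundant of the family, stood at 36.7, 40.8 and 51.8 against 59.9, 62.7 and 48.1 FPKM, with B-CTRL 3 above NB-CTRL 3 (log2 difference -0.40 ± 0.18 SE, unadjusted limma p 0.0554). In level Hcn2 lay above Hcn3 (3.99 to 11.2 FPKM) in every library, and Hcn4 (1.86 to 5.90 FPKM) overlapped the range of Hcn3. The HCN median stayed between -0.75 and -0.40 when each library was left out in turn.

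Of the 10 members with an unadjusted limma p under 0.05, 9 (all but Kcna6) were highest in NB-CTRL 2. All 10 were lower in B-CTRL, which by itself favours an NB-CTRL library as the highest. The same share among all features lower at that p was not computed. Over all tested members 20 of 78 were highest there (25.6%, against 17.5% of all features). Without NB-CTRL 2 only Kcnc1 (log2 difference -0.56, unadjusted limma p 0.0119), Hcn4 (-0.62, p 0.0254) and Kcnb2 (-0.73, p 0.0375) of the 10 kept an unadjusted limma p under 0.05, each with an adjusted p of 0.689. These 3 genes, which had the lowest unadjusted limma p of the members, had one under 0.05 in each of the 17 refits. The refits reuse the same libraries, and the same share over all features was not computed. Among the thalamic and hypothalamic markers, 6 of 8 were highest in the same library, such as Calb2 at 85.2 FPKM against 5.90 to 37.1 elsewhere, and their part in these differences was not tested.

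**Figure D3:**
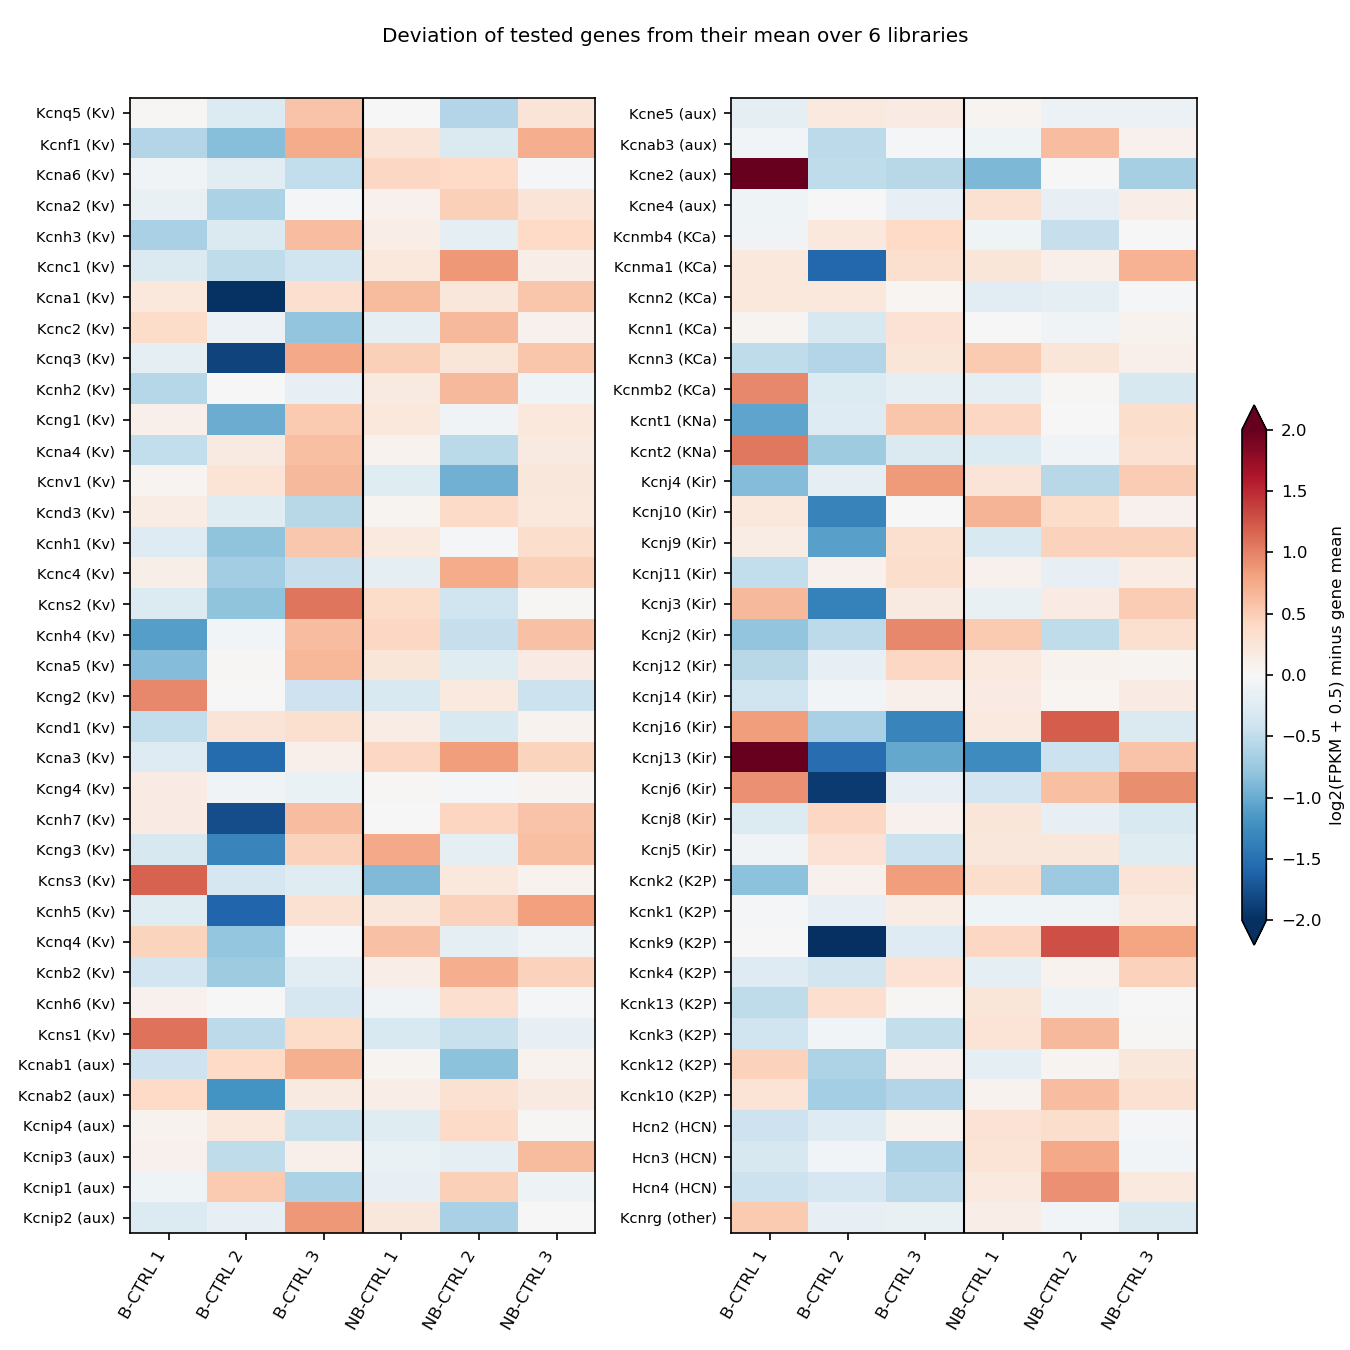
Colour gives the log2(FPKM + 0.5) of tested members minus the gene's mean over the 6 libraries (columns; B-CTRL left of the line), with genes ordered by class and, within it, by mean FPKM; colours end at 2 and -2. B-CTRL 2 is blue for Kcnq3, Kcna1, Kcnk9 and Kcnj6, and B-CTRL 1 is red for Kcne2 and Kcnj13.

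B-CTRL 2 held the lowest value of 37 of 78 members (47.4%, against 29.3% of all features) and B-CTRL 3 the highest of 25 (32.1%, against 14.6%). B-CTRL 1 was highest for 13 (against 17.3% of all features). The median deviation of the members from their own means was -0.076, -0.33 and 0.10 log2 for B-CTRL 1, 2 and 3, against 0.15, 0.057 and 0.17 for NB-CTRL 1, 2 and 3. B-CTRL 3 thus overlapped the untested libraries and B-CTRL 2 lay lowest. For voltage-gated pore subunits the spread was wider, with -0.13, -0.58 and 0.33 for B-CTRL against 0.19, 0.20 and 0.22. For HCN genes the 3 tested libraries lay together at -0.37, -0.30 and -0.39, against 0.23, 0.59 and 0.081. Without B-CTRL 2 the median log2 difference of all members was -0.12 in place of -0.23, and that of voltage-gated subunits -0.15 in place of -0.40. The excitatory neuron marker Slc17a7 was also lowest in B-CTRL 2, and its part in these differences was not tested.

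Another set of members ordered the libraries as striatal genes did. In 9 members (11.5%, against 4.42% of all features) B-CTRL 3 was highest and B-CTRL 1 and NB-CTRL 2 were the lowest 2, which is the order in which all 5 striatal markers ran. Drd2, a striatal dopamine receptor, stood at 42.3, 120 and 163 FPKM in B-CTRL and at 118, 45.4 and 95.7 FPKM in NB-CTRL. The members were Kcnab1, Kcnk2, Kcnj4, Kcna4, Kcnip2, Kcnj11, Kcnh4, Kcna5 and Kcnd1, a set picked after their values were seen. Kcnip2 stood at 15.2, 16.4 and 34.1 FPKM in B-CTRL and at 21.7, 11.6 and 18.3 FPKM in NB-CTRL. In none of these 9 did the groups stand apart, and the part of striatal tissue in their levels was not tested.

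**Figure D4:**
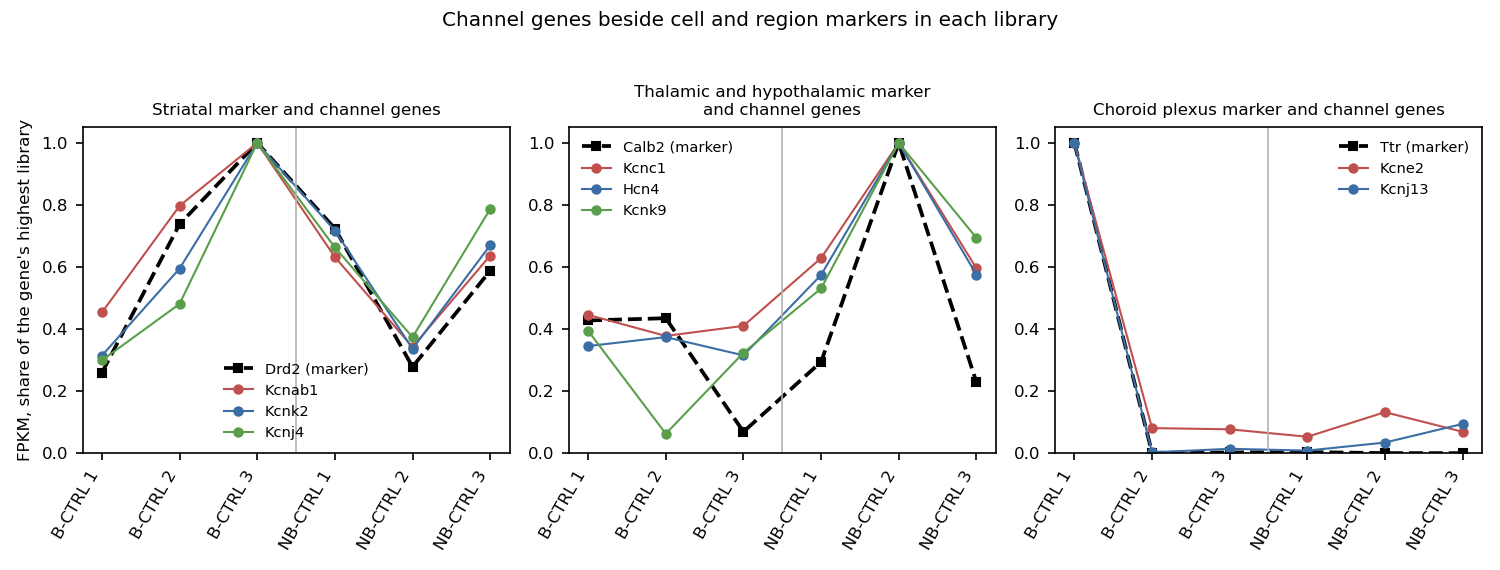
FPKM of chosen channel genes (solid) and of 1 marker gene (dashed) in each library, as a share of each gene's highest library. Kcnab1, Kcnk2 and Kcnj4 peak with Drd2 in B-CTRL 3, Kcnc1, Hcn4 and Kcnk9 with Calb2 in NB-CTRL 2, and Kcne2 and Kcnj13 with Ttr in B-CTRL 1.

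Promoters are shown for 5 members picked as examples from these library patterns. RefSeq windows of build GRCr8, 250 bases before to 50 after the annotated start, matched 63 members by symbol or Ensembl ID. Capitals mark the GC box GGGCGG on either strand or, in Kcnj13, the letters TATAAA, and sequences run from 5′ to 3′ on the gene's strand. Kcnc1 (chr1:106038997-106039296, plus strand) and Kcna2 (chr2:197393280-197393579, plus strand) were highest in NB-CTRL 2, Kcnab1 (chr2:151614301-151614600, plus strand) and Kcnk2 (chr13:103494637-103494936, minus strand) ran in the striatal order, and Kcnj13 (chr9:95518937-95519236, minus strand) was high in B-CTRL 1.
Kcnc1: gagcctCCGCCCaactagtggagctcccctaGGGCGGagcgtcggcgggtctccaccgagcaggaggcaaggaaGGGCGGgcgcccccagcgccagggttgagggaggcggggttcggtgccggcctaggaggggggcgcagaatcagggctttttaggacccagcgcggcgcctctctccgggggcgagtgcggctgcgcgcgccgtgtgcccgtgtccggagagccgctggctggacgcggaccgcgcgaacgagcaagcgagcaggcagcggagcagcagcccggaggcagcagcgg
Kcna2: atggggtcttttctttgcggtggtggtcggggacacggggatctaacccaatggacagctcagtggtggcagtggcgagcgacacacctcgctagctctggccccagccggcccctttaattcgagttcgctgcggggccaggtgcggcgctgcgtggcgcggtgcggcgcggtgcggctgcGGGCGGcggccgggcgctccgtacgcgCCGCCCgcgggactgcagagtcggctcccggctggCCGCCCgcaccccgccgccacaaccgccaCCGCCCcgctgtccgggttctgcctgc
Kcnab1: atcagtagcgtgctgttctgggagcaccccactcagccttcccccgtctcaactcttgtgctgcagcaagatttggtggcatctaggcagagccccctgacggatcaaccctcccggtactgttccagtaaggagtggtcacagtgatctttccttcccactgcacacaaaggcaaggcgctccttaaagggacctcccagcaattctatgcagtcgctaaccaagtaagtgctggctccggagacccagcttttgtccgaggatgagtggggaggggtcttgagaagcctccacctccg
Kcnk2: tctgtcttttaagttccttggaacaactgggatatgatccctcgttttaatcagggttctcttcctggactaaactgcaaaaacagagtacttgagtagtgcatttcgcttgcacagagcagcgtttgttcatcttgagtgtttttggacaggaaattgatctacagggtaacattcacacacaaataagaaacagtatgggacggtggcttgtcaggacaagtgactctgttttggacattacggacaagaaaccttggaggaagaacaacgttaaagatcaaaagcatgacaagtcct
Kcnj13: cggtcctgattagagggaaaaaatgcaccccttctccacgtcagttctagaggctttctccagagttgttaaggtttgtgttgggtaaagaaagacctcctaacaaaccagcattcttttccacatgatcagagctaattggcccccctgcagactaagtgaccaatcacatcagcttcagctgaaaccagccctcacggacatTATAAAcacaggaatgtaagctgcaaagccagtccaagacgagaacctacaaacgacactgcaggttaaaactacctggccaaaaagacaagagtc
The first 2 windows held 3 and 4 GC boxes and 74.0% and 73.3% G and C, while those of Kcnab1 and Kcnk2 held 0 and 56.7% and 41.7% G and C. Windows varied within each pattern. Of members highest in NB-CTRL 2, Kcna3 held 3 GC boxes (74% G and C) and Kcnc2 held 0 (56%). In the striatal order Kcna4 held 0 (41.7%) and Kcnip2 held 2 (67.7%). Of the 50 tested members with a window 58% held a GC box on either strand, against 33.1% of all 33469 windows, and their median G and C content was 66.3% against 51.7%. TATAAA on either strand stood in 2% of them (Kcnj13 alone) against 14.2% of all windows, and the cyclic AMP response element TGACGTCA in 0 against 1.83%. All windows include those of genes that were not tested here, so they are a set unlike the tested members. The shares over tested features alone were not computed. These matches describe the letters of the windows, and the starts used in this tissue may lie elsewhere.

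Channel genes had lower medians than other features of like locus span, at short and long loci. Locus span is the length of genome from a feature's first to its last annotated base. Among 11017 tested features with a locus of their own, the log2 difference ran from a median of 0.13 in the shortest eighth (up to 3.19 kb) to -0.23 in the longest (from 84.8 kb). The 11 members in the shortest eighth had a median of -0.18, with 8 lower, against 36.6% of all such features there. Of these members 10 lay below the eighth's median. The 16 in the longest, with a locus of their own, had a median of -0.36. In that eighth 12 members were lower, close to the share of all such features there (73.4%), and 10 lay below the eighth's median. Across 64 members with their own locus the log2 difference and log10 span had a Pearson correlation of -0.13 (Spearman -0.13), against -0.27 (Spearman -0.30) over all such features. These genes share the same 6 libraries, so the values describe them without a test. The 32 shorter members (up to 29.5 kb) had a median of -0.20 and the 32 longer ones (from 29.6 kb) of -0.40.

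**Figure D5:**
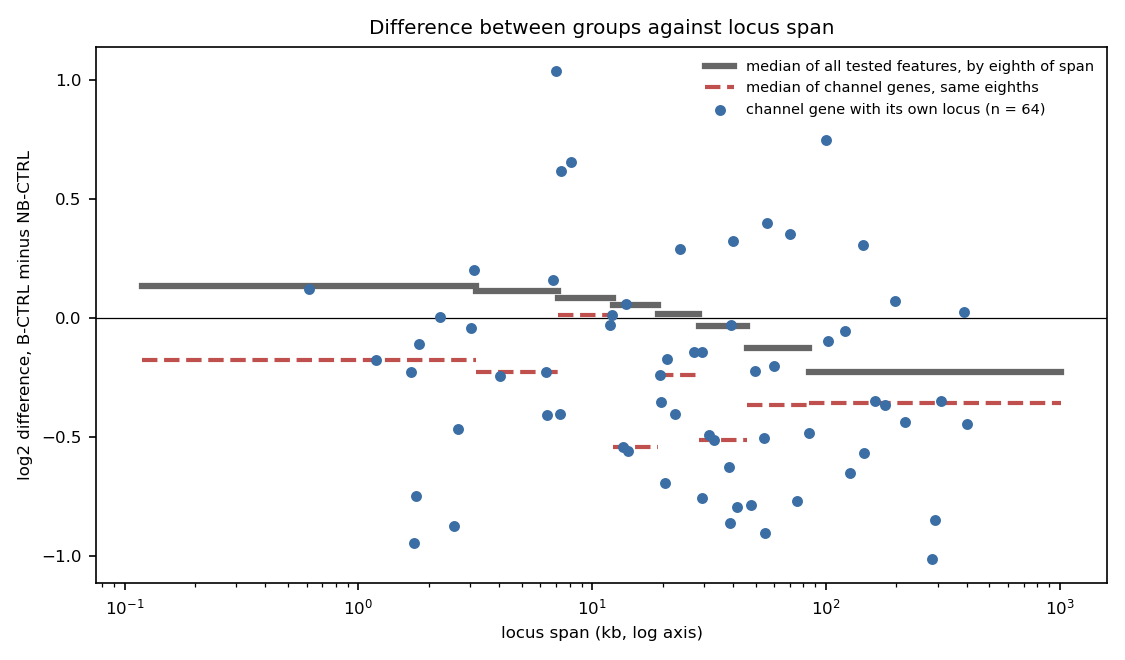
Log2 difference between groups (B-CTRL minus NB-CTRL) of 64 channel genes with their own locus (points) against locus span in kb on a log axis, with the median of all tested features (grey) and of channel genes (red, dashed) in eighths of span. The red median lies below the grey one in each of the 8 eighths.

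Single genes at the ends of this range varied. The shortest loci were Kcne5 (0.616 kb), Kcne4 (1.19 kb) and Kcnj2 (1.68 kb), with log2 differences of 0.12, -0.18 and -0.23. Among the longest unshared loci were Kcnt2 (390 kb, log2 difference 0.026) and Kcnh1 (312 kb, log2 difference -0.35), and Kcnma1, with a shared locus of 704 kb, was at -0.69. Without B-CTRL 2 those of Kcnh1 and Kcnma1 were -0.032 and -0.085. When each library's trend with span was removed, the member median was -0.18, that of HCN genes -0.51 and that of voltage-gated subunits -0.28, and 9 of the 10 members with an unadjusted p under 0.05 (all but Kcnk3) kept one in limma. Classes differed in span, with medians of 8.37 kb for Kcna genes, 32.5 kb for voltage-gated pore subunits, 27.2 kb for inward rectifiers, 98.5 kb for calcium-activated and 112 kb for two-pore members.

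Several members lie side by side on a chromosome in rn6. Kcna5, Kcna1 and Kcna6 follow each other on chromosome 4 with gaps of 112 and 61.4 kb, and had mean levels of 8.69, 21.2 and 27.8 FPKM and log2 differences of -0.11, -0.94 and -0.51. Kcna3, Kcna2 and Kcna10 follow each other on chromosome 2, where Kcna3 and Kcna2 stood at 4.04 and 27.2 FPKM and Kcna10 was listed at 0. Kcnj9 and Kcnj10 lie 12.8 kb apart on chromosome 13 and were both lowest in B-CTRL 2. Kcne2 and Kcne1 lie 51.0 kb apart on chromosome 11, and Kcne1 was listed at 0 in B-CTRL 1 as well, where Kcne2 was at 13.4 FPKM.

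Genes that work with these channels were read from lists of partners and of ion transport. Of 10 genes for partners and clustering of voltage-gated channels 8 were lower (80%, median -0.42). Among all tested features 50.3% were lower, and at an unadjusted limma p under 0.05 6.07% were lower and 6.25% higher. Unadjusted limma p were under 0.05 for Amigo1, a Kcnb partner (24.4 ± 1.89 against 31.3 ± 3.86 FPKM, lower), for the juxtaparanodal adhesion gene Cntn2 (21.9 ± 8.17 against 39.2 ± 8.54 FPKM, lower) and for Lgi1, a secreted protein that regulates Kcna channels (54.8 ± 4.55 against 42.8 ± 5.22 FPKM, higher). Of 7 genes for partners of ATP-sensitive, large-conductance and HCN channels 4 were tested and each was lower (median -0.57), with 0 under an unadjusted p of 0.05. Abcc8, the sulfonylurea receptor, was at 5.06 ± 1.83 against 7.23 ± 0.564 FPKM, the lowest p of that list. Of 10 potassium pumps and cotransporters 7 were lower (median -0.17), and 2 had an unadjusted limma p under 0.05, both lower. One was Slc12a5, the neuronal potassium chloride cotransporter (78.9 ± 47.7 against 144 ± 8.99 FPKM, log2 difference -1.04 ± 0.41 SE). It stood at 68.0, 37.6 and 131 FPKM in B-CTRL 1, 2 and 3. B-CTRL 2 was the lowest library for 6 of the 10 voltage-gated channel partners and 5 of the 10 pumps and cotransporters. It was also lowest for 2 of the 4 tested genes of the other list, against 29.3% of all features. In limma 0 genes of these lists passed over all features.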

How the data were processed

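Poly(A)-selected libraries were made from amygdala RNA with a strand-marking kit, per the labels' protocols. The authors deposited FPKM per feature and library with gene symbol and rn6 locus. STAR 2.5.4b and Cuffdiff 2.2.1 are named in the submitters' processing notes, without roles or settings. The annotation release and the lanes were not given in the sources used here. Overlapping features can therefore share fragments. From the deposited FPKM, log2(FPKM + 0.5) was fitted, for features averaging 0.5 FPKM or more, with limma 3.58.1 in R 4.3.3 (trend, group as the only term, 3 libraries per group), with Benjamini-Hochberg adjustment over 14043 features. The fit was tested on simulated data. With 3 against 3 libraries an exact two-sided permutation test cannot go below 0.1, so none was run on single genes.

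The members and lists were chosen with earlier results of these data known. Partner and marker lists held 102 symbols, of which 98 matched. Named by rule were members with an unadjusted p under 0.05, the 3 highest and the lowest p in each class, the Hcn genes, 5 members known from choroid plexus, vessels and glia, the ends of the span range, and partners with an unadjusted p under 0.05 or else the lowest p. Other members were named after their values were seen, and some members and partners that the rule names are not reported here. Other pseudocounts, filters, scalings, moderation, library weights, a replicate block, removal of the span trend and leaving out each library were tried.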

Additional observations from a re-analysis of the deposited data

How the results depend on the processing

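In all 17 refits 0 members passed an adjusted limma p of 0.05. Over all features the count was 0 too, except for 1 without NB-CTRL 3, so leaving out libraries gave 0 to 1. The count of lower members with an unadjusted limma p under 0.05, 10 as reported, was 6 after scaling libraries to 1 median and 3 to 19 when single libraries were left out, lowest without NB-CTRL 2 and highest without B-CTRL 3. The count of higher members, 0 as reported, was 3 after median scaling, 1 after quantile normalization, 2 with library weights, 2 after removal of the span trend, and 0 to 2 with libraries left out. With the replicate number as a block 11 were lower and 1 higher, and 0 passed. Same-numbered libraries deviated with correlations of -0.22, 0.072 and 0.15, and unlike-numbered ones with -0.295 to 0.215. No pairing by number was seen, though so few values cannot exclude it.

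With single libraries left out, the median log2 difference ran from -0.45 to -0.12 for all members, -0.75 to -0.40 for HCN, -0.46 to -0.081 for inward rectifiers, -0.38 to -0.051 for two-pore, -0.045 to 0.23 for calcium-activated and -0.16 to 0.046 for auxiliary members. The auxiliary median was -0.026 after median scaling and 0.062 after removal of the span trend. Of 39 named genes 13 changed sign in 24 of 662 refits. Kcnk1 did so after median scaling (0.064) and span removal (0.041), Kcnip4 after span removal (0.10) and Kcnk2 with library weights (-0.29). With libraries left out the ranges were -0.017 to 1.57 for Kcne2, -0.90 to 1.69 for Kcnj13, -0.77 to 0.11 for Kcnj2, -0.60 to 0.26 for Kcnj4, -0.0099 to 0.33 for Kcnj8, -0.67 to 0.035 for Kcnj9, -0.11 to 0.058 for Kcnk1, -0.33 to 0.50 for Kcnk2, -0.25 to 0.092 for Kcnip4, -0.70 to 0.092 for Kcnab2, -0.032 to 0.40 for Kcnq5, -0.090 to 0.25 for Kcnrg and -0.49 to 0.39 for Kcnt2. The cause of these shifts was not tested.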
